A study of Mus musculus with 88 samples.

Results

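The kidney was compared between mice with a knockout of Cdh15 (Cdh15 KO) and wild type mice (WT). The comparison was made of every kidney library at hand, which was 9 of the 88 libraries of the study, 5 from KO and 4 from WT mice, and it covered all genes. All mice were males of strain 100% C57BL/6NTac, fasted for 18 h, and no other allele or agent is named for either group. The KO mice were 85, 82, 72, 71 and 65 days old and the WT mice 83, 72, 71 and 65 days old, and values per mouse are given below in that order. Each library is polyadenylated RNA of the kidney of 1 mouse, so no pool was made, and the labels name no Cre and no promoter for the knockout. The same mice also gave heart, liver, lung, spleen and 4 leg muscles, and kidney is one of the organs in which Cdh15 is hardly or not transcribed.

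M-cadherin, the product of Cdh15, joins myoblasts, satellite cells and muscle fibres by binding the same protein on the next cell, needs calcium to do so, and is tied to actin through catenins. The kidney tubule is held together by other cadherins, above all E-cadherin (Cdh1) and the kidney-specific Cdh16. Along the nephron, blood is filtered past podocytes, the proximal tubule takes back most solutes and makes glucose in fasting, and the thick ascending limb, distal tubule and collecting duct set the final salt, calcium and water content of urine. A comparison of KO and WT kidney therefore asks what loss of M-cadherin does in an organ that does not use the gene.

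Cdh15 had 0 reads in each of the 9 kidney libraries, KO and WT alike. With 3 reads as the limit that a count of 0 allows, its level was at most 0.127 to 0.157 CPM (counts scaled to the library total) in a library, counting error only. Sums over a list of genes are given on this scale too, while the CPM of single genes are TMM-normalized. The genotype was therefore read from the muscles of the same mice, where Cdh15 had 13 to 72 reads in the 20 KO libraries and 105 to 521 reads in the 20 WT libraries. A LacZ marker sequence in the deposited table had 47 to 179 reads in KO muscle and 0 to 3 reads in WT muscle. In kidney LacZ had 1 read in the KO mouse aged 82 days and none in the other 8 libraries. The kidney itself offers no check of the genotype, since neither sequence is transcribed there above that limit.

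Depth ran from 19.1 M to 23.7 M counts per kidney library (M, mega), on average 20.6 ± 1.17 M for the 5 KO mice and 22.0 ± 1.40 M for the 4 WT mice (SD). That difference was not separated from the spread (exact permutation test, 2-sided, p = 0.159), and with 126 ways to relabel the 9 mice the smallest p this design allows is 0.0079. The 10 most counted genes took 23.1 ± 1.28% of the counts in KO and 24.3 ± 0.401% in WT (exact permutation p = 0.0476, and 0.159 adjusted over the 4 library measures tested). Mitochondrially encoded RNA took 22.2 ± 1.87% in KO and 23.6 ± 0.377% in WT (exact permutation p = 0.0794, adjusted 0.159). The lowest mitochondrial share, 18.9%, was that of the KO mouse aged 65 days, and the other 8 libraries lay between 22.6% and 23.9%. Results that rest on this mouse are given with and without it.

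The libraries had the make-up of whole kidney. On the RPKM scale (reads per kilobase and library total, a level per length of transcript), 9 of the 10 genes of highest level were mitochondrially encoded, led by ATP6, COX1 and COX2, and the other was Kap, the androgen-dependent kidney protein of the straight proximal tubule, at 31506 RPKM on average. Markers of each part of the nephron were present. Slc34a1, the phosphate carrier of the proximal tubule, stood at 1252 ± 121 RPKM in KO (SD, n = 5) and 1304 ± 103 RPKM in WT (SD, n = 4). Umod, the urinary protein uromodulin of the thick ascending limb, stood at 693 ± 116 and 558 ± 150 RPKM. Slc12a3, the thiazide-sensitive salt carrier of the distal convoluted tubule, was at 51.9 ± 20.004 and 36.5 ± 5.70 RPKM, and Aqp2, the water channel of the collecting duct, at 94.1 ± 19.7 and 103 ± 18.8 RPKM.

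No gene passed the test between KO and WT kidney. Of 14274 genes with enough reads, 0 (0%) had an adjusted p under 0.05 in edgeR's quasi-likelihood test with Benjamini-Hochberg adjustment over all of them. At an unadjusted p under 0.05 there were 478 genes, 271 higher in KO (1.9% of all tested) and 207 lower (1.45%), where 713.7 would lie under that level if no gene differed. The log2 fold change, KO minus WT, was positive for 49.9% of genes, its median was -0.0002, and its lower and upper quartiles were -0.06 and 0.07. In 86 genes (0.602%) every KO library was above every WT library, and in 93 (0.652%) every KO library was below. DESeq2 called 4 genes on the same counts, namely Sesn2, Cidec, Cfd and Plin4, and edgeR without the filter on low counts called 1, Sesn2.

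The precision of the comparison was set by the spread among mice and, for low genes, by depth. Among 9017 genes at 10 CPM or more the 95% interval of the log2 fold change reached a median of 0.147 to either side, and in 98.004% of them it lay within a 1.5-fold change either way. Among 4223 genes between 1 and 10 CPM it reached 0.305, and 97.8% were bounded within 2-fold. Among the 1034 genes under 1 CPM it was 0.614 and 73.8% were bounded within 2-fold, so that changes under 2-fold were not detectable for many of these.

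**Figure D1:**
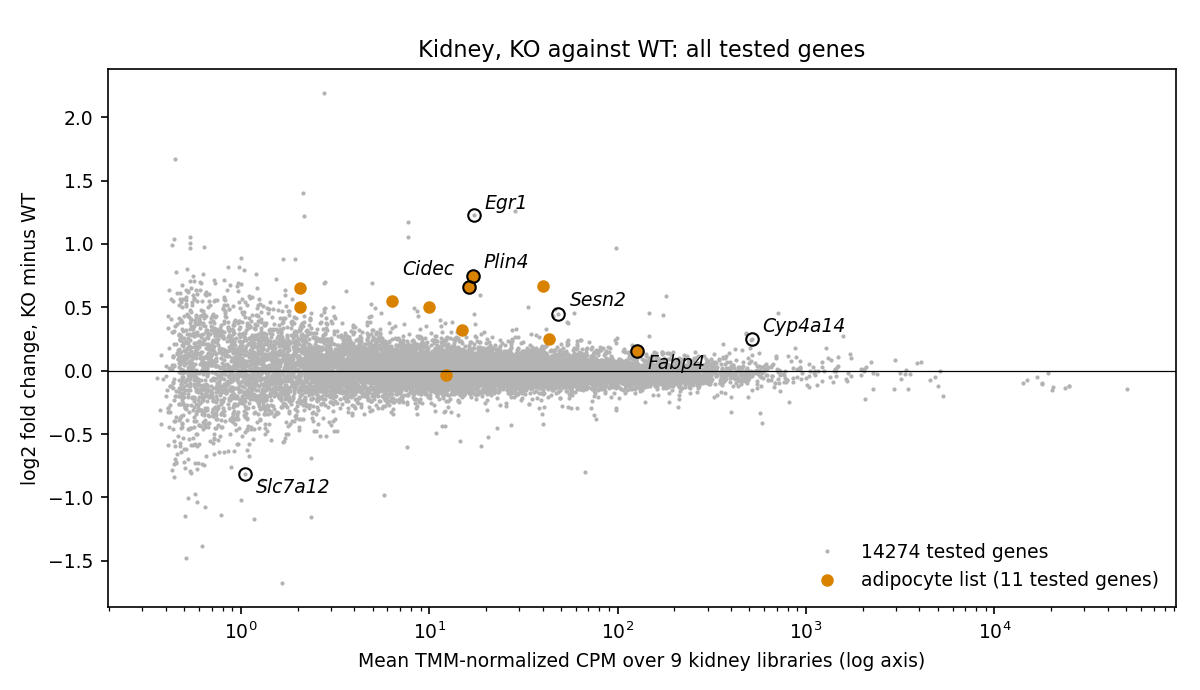
The log2 fold change, KO minus WT, of 14274 tested genes in kidney (vertical axis) against their mean TMM-normalized CPM over 9 libraries (horizontal log axis), with the 11 tested genes of the adipocyte list in orange and 7 genes ringed and named. The cloud is centred on 0 and narrows as the level rises, and 10 of the 11 adipocyte genes lie above 0.

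Sesn2, the gene of smallest p, encodes sestrin 2, a stress-induced protein that binds leucine and restrains the growth kinase mTORC1. It lies on chromosome 4, 132492807 to 132510456 in mm10, on the minus strand. Its level was 49.7, 55.7, 56.8, 51.1 and 59.3 CPM in the KO mice and 42.9, 39.9, 42.0 and 35.2 CPM in the WT mice. All 5 KO mice were above all 4 WT mice, with a gap from 42.9 to 49.7 CPM between the groups. The log2 fold change was 0.45 (SE 0.07), with an adjusted p of 0.231 in edgeR, 0.0400 in edgeR without the filter on low counts and 0.000213 in DESeq2. The call therefore changes with the tool and the filter, while the log2 fold change lay between 0.39 and 0.48 over 16 alternatives, and was 0.42 (SE 0.07) without the KO mouse aged 65 days.

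Sestrin 2 is one of the genes that ATF4 switches on in the integrated stress response, the program that answers amino acid shortage and misfolded protein. The program was therefore looked at as a whole, and 12 of its 17 tested genes were higher in KO, beside 49.9% of all tested genes. Its median log2 fold change was 0.09 against -0.0002 over all genes, and 0.04 without the KO mouse aged 65 days. Mthfd2, a mitochondrial folate enzyme, had 3.36, 3.55, 3.32, 4.57 and 2.82 CPM in KO and 1.81, 2.90, 3.08 and 2.20 CPM in WT. The ranges overlapped, and its log2 fold change was 0.50 (SE 0.18). Asns, asparagine synthetase, had 5.19, 4.85, 4.83, 10.99 and 3.98 CPM in KO and 2.64, 3.91, 5.09 and 3.25 CPM in WT. Its difference was 0.69 (SE 0.33), and 0.34 (SE 0.18) without the KO mouse aged 71 days, the highest. Atf4 itself differed by 0.00 (SE 0.07) and Ddit3 (CHOP), another target, by -0.07 (SE 0.08). Of the 17 genes Sesn2 and Mthfd2 were under an unadjusted p of 0.05 with KO higher, beside 1.9% of all tested genes. Sesn2 is the gene for which the program was looked at, so it adds nothing to this count. With each mouse left out in turn, 1 to 5 higher genes were under that level.

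The promoters of Sesn2 and Asns are shown because they belong to the pair of stress response genes with the smallest p and the largest difference in this list. Each run holds 250 bases before to 50 bases after the gene's start from RefSeq on GRCm38.p6, 5′ to 3′ on the gene's strand, from chr4:132510407-132510706 and chr6:7693160-7693459. Capitals mark TGATGNAA, the core of the element bound by C/EBP and ATF factors, searched on both strands.
Sesn2: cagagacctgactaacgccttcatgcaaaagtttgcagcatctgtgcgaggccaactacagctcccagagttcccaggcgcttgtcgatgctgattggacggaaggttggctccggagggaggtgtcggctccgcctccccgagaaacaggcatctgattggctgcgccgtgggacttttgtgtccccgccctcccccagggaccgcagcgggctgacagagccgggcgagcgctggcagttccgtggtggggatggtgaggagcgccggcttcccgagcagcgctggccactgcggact
Asns: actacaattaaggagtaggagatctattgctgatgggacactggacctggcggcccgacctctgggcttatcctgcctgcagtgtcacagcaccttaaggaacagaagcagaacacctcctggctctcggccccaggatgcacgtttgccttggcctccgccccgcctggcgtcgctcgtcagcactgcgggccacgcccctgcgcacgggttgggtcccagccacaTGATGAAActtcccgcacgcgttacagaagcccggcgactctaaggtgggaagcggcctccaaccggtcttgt
The letters occur in the promoter of Asns and not in this window of Sesn2. They were found in 4 of the 17 stress response promoters (Asns, Trib3, Chac1 and Nupr1), or 23.5%, and in 250 of the 11281 tested genes with a promoter in the table, or 2.22%. A match describes these letters only and is not a measured binding site.

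Genes of fat cells were the group with the highest median difference among the 50 lists examined. Of 11 tested adipocyte genes, 10 had a positive log2 fold change, with a median of 0.50, and 8 of the 11 were under an unadjusted p of 0.05 with KO higher, beside 1.9% of all tested genes. None passed the adjusted threshold in edgeR, and 2, Cidec and Plin4, did not overlap between the groups, beside 0.602% of all genes. The lists were chosen with earlier results of these data known, and Cidec, Cfd, Adipoq and Plin4 are among the 10 genes of smallest p with KO higher. These counts therefore describe the list and are not a test of it. Summed over the list, adipocyte RNA was 297 to 371 CPM of the library total in KO and 238 to 266 CPM in WT. In whole tissue more fat cells and more RNA per fat cell cannot be told apart, and whether fat attached to the dissected kidney had a part in this was not tested.

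Cidec, which joins lipid droplets in fat cells into larger ones, lies on chromosome 6, 113424636 to 113435755. It had 18.2, 21.2, 17.6, 16.4 and 23.2 CPM in KO and 12.6, 14.1, 11.1 and 11.1 CPM in WT mice. Every KO mouse was above every WT mouse, by a log2 fold change of 0.66 (SE 0.11, adjusted p = 0.250 in edgeR and 0.000333 in DESeq2). Plin4, a coat protein of lipid droplets, had 15.7, 27.8, 19.1, 18.0 and 23.9 CPM in KO and 10.1, 14.6, 14.3 and 10.7 CPM in WT. Its groups also did not overlap, with a log2 fold change of 0.75 (SE 0.19, adjusted p = 0.9996 in edgeR and 0.0297 in DESeq2).

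Among secreted products of fat, Cfd (adipsin, a complement protease) had 53.8, 53.1, 36.8, 43.8 and 53.9 CPM in KO and 29.1, 30.6, 37.0 and 24.9 CPM in WT. Only the WT mouse aged 71 days and the KO mouse aged 72 days overlapped, and the log2 fold change was 0.67 (SE 0.14, adjusted p = 0.9996 in edgeR and 0.00183 in DESeq2). Adipoq, the hormone adiponectin, had 9.84, 12.6, 11.1, 12.4 and 11.02 CPM in KO and 7.003, 6.77, 10.7 and 7.83 CPM in WT. The same WT mouse aged 71 days overlapped with the KO range here, and the difference was 0.50 (SE 0.13). Lep, leptin, was too low to be tested, at 0 to 0.226 RPKM.

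Plin1, the main droplet coat of white fat, differed by 0.55 (SE 0.21), Adrb3, the adrenergic receptor of fat, by 0.65 (SE 0.27), Retn (resistin) by 0.50 (SE 0.23) and the lipase Lipe by 0.25 (SE 0.10). Fabp4, a fatty acid binding protein that capillaries also make, differed by 0.16 (SE 0.08). The 2 genes of brown fat gave 0.32 (SE 0.40) for Ucp1, the uncoupling protein, and -0.03 for Cidea. Ucp1 was 28.2 CPM in the KO mouse aged 85 days, the highest, and 6.11 CPM in the WT mouse aged 71 days, the lowest, with the other 7 mice between. With each mouse left out in turn, 10 or 11 of the 11 adipocyte genes stayed positive, the median lay between 0.41 and 0.61, and 4 to 8 genes were under an unadjusted p of 0.05. Without the KO mouse aged 65 days the median was 0.41, with 10 of 11 positive, and Cidec differed by 0.58 (SE 0.10).

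**Figure D2:**
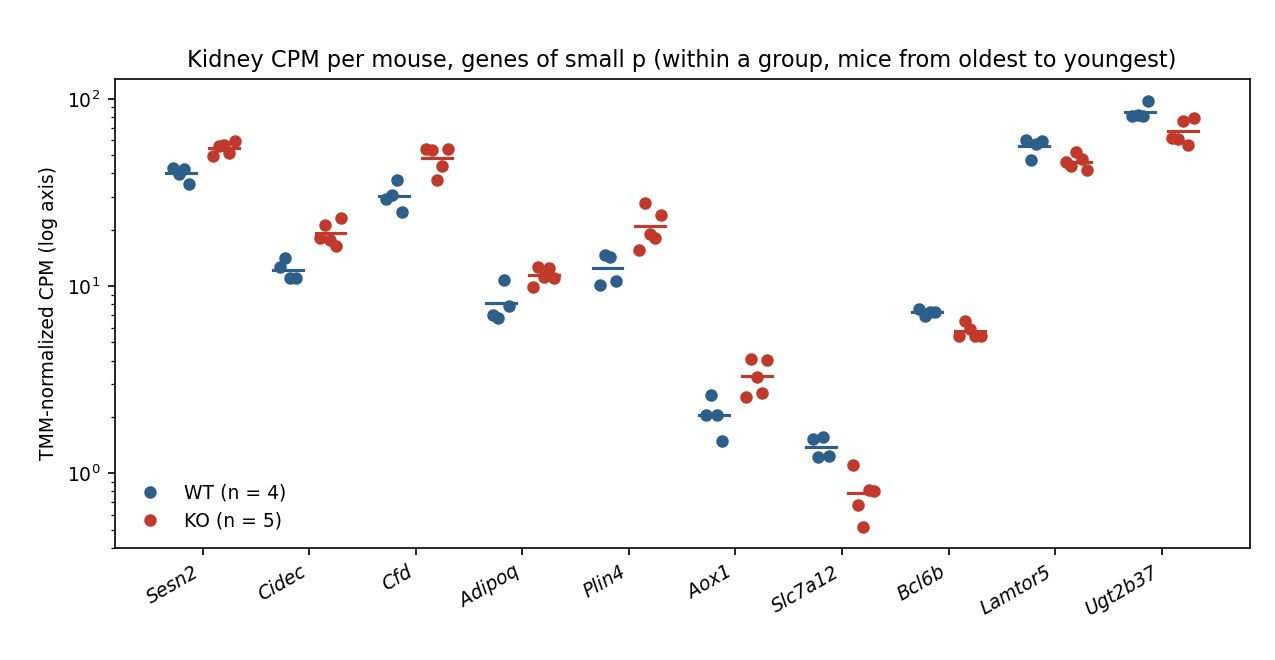
TMM-normalized CPM (log axis) of 10 genes among those of smallest p in kidney. Each point is 1 mouse, WT in blue and KO in red, from oldest to youngest within a group, and bars are group means. Sesn2, Cidec, Plin4, Slc7a12, Bcl6b and Ugt2b37 show no overlap between groups. The genes were chosen for small p, which favours groups without overlap.

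The other genes of smallest p with KO higher were small or low. Aox1, an aldehyde oxidase, had 2.55, 4.09, 3.27, 2.67 and 4.03 CPM in KO and 2.04, 2.61, 2.05 and 1.48 CPM in WT, overlapping at the low end (log2 fold change 0.69, SE 0.19). Sowahb, an ankyrin repeat protein, was at 21.2 to 22.8 CPM in KO and 18.0 to 20.8 CPM in WT, without overlap (0.23, SE 0.06). Ccdc160, a coiled-coil protein, was at 2.93 to 3.73 CPM against 2.04 to 2.53 CPM, also without overlap (0.50, SE 0.13). Rai1, a chromatin-associated protein, was at 25.4 to 29.3 CPM against 22.8 to 23.5 CPM (0.20, SE 0.06), and Peg3, an imprinted zinc finger gene, differed by 0.27 (SE 0.08) with overlap. All 5 had an adjusted p of 0.9996 in edgeR. Every KO library was above every WT library in 0.602% of all tested genes, and genes chosen for small p are apt to be among them.

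On the lower side, Slc7a12, an amino acid carrier, had 1.10, 0.674, 0.519, 0.814 and 0.805 CPM in KO and 1.53, 1.22, 1.57 and 1.24 CPM in WT. Each KO mouse was below each WT mouse, the level was near 1 CPM, and the log2 fold change was -0.81 (SE 0.22). Bcl6b, a transcriptional repressor found in endothelium, had 5.38, 6.51, 5.92, 5.38 and 5.44 CPM in KO and 7.51, 6.89, 7.29 and 7.30 CPM in WT, again without overlap (-0.34, SE 0.09). Lamtor5, a subunit of the Ragulator complex that brings mTORC1 to the lysosome, was at 41.8 to 51.9 CPM in KO and 47.2 to 60.6 CPM in WT, with overlap (-0.28, SE 0.08). Ugt2b37, a glucuronosyltransferase, was at 57.0 to 79.3 CPM in KO and 80.7 to 97.96 CPM in WT, without overlap (-0.35, SE 0.10).

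Nhej1, a factor of DNA end joining, differed by -0.48 (SE 0.14), the kinesin Kifc5b by -0.67 (SE 0.21), and the RNA polymerase II subunit Polr2d by -0.30 (SE 0.10). Eral1, which helps assemble the small mitochondrial ribosome subunit, differed by -0.20 (SE 0.06), Mrpl54, a protein of the large subunit, by -0.18 (SE 0.06), and Cript by -0.16 (SE 0.06). Of these 6, Nhej1 and Mrpl54 did not overlap between the groups, beside 0.652% of all tested genes with every KO library lower. Genes chosen for small p are apt to lack overlap, so its absence adds nothing to their p. The 10 genes of smallest p with KO lower each had an adjusted p of 0.9996 in edgeR, and DESeq2 called none of them.

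Cadherins other than Cdh15 stood at like levels in both genotypes. Of 20 listed, 12 were tested, 9 with a positive and 3 with a negative difference, and none was under an unadjusted p of 0.05. Cdh16, the cadherin of the kidney tubule, was the highest at 208 ± 20.8 RPKM in KO (SD, n = 5) and 195 ± 10.2 RPKM in WT (SD, n = 4). Its log2 fold change was 0.04, with a 95% interval from -0.09 to 0.17. Cdhr5, a protocadherin of the brush border, was at 78.3 ± 2.46 and 77.3 ± 2.77 RPKM (-0.02, interval -0.13 to 0.10). Cdh1, E-cadherin, was at 32.7 ± 2.61 and 30.1 ± 2.37 RPKM (0.08, SE 0.06), and Cdh5, the endothelial cadherin, at 11.7 ± 0.533 and 11.1 ± 0.695 RPKM (0.03, SE 0.05). Cdh3, P-cadherin, had the largest positive difference, 0.29 (SE 0.14), at about 1 RPKM.

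Their partners inside the cell gave the same picture. Among 14 tested catenin and adherens junction genes, 8 were positive and 6 negative with a median of 0.01, and none was under an unadjusted p of 0.05. Ctnnb1, β-catenin, was at 119 ± 3.10 RPKM in KO (SD, n = 5) and 118 ± 2.69 RPKM in WT (SD, n = 4), and differed by -0.03 (SE 0.05) on the log2 CPM scale, while Ctnna1, α-catenin, differed by 0.00 (SE 0.05). Of 8 desmosome genes 6 were positive with a median of 0.14, which was 0.04 without the KO mouse aged 71 days. Evpl, envoplakin, was the only one under an unadjusted p of 0.05 (0.16, SE 0.07), beside 3.35% of all tested genes in either direction. Of 18 tight junction genes 14 were positive with a median of 0.08, which was 0.02 without the WT mouse aged 83 days. Of the 18, 1 (Marveld2) was under an unadjusted p of 0.05 with KO higher, beside 1.9% of all tested genes. Of 15 tested genes of myoblast adhesion and fusion, 10 were positive with a median of 0.03. Of 13 Wnt and β-catenin target genes 4 were positive with a median of -0.07. Of the 13, 2 (Myc and Znrf3) were under an unadjusted p of 0.05 with KO higher, beside 1.9% of all tested genes. Myc differed by 0.49 (SE 0.15), at 7.44 to 11.5 CPM in KO and 5.25 to 8.12 CPM in WT.

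Genes beside Cdh15 on chromosome 8 were examined since an engineered allele can touch its neighbours. Within 1 Mb, 39 genes were tested, of which 14 had a positive difference, beside 49.9% of all tested genes. Of the 39, 1 was under an unadjusted p of 0.05, beside 3.35% of all tested genes, and 0 passed the adjusted threshold. The 1 gene under the unadjusted level was Trappc2l, a subunit of a vesicle tethering complex. It had 17.9 to 21.1 CPM in KO and 21.0 to 26.1 CPM in WT, nearly without overlap (-0.19, SE 0.08). Nearest to Cdh15 were Ankrd11 with a difference of -0.02 (SE 0.07) and Acsf3 with -0.10 (SE 0.05). The largest positive difference in the window was Mc1r, 0.57 (SE 0.27), at under 1 CPM. It was the 1 gene there whose groups did not overlap, beside 1.25% of all tested genes.

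**Figure D3:**
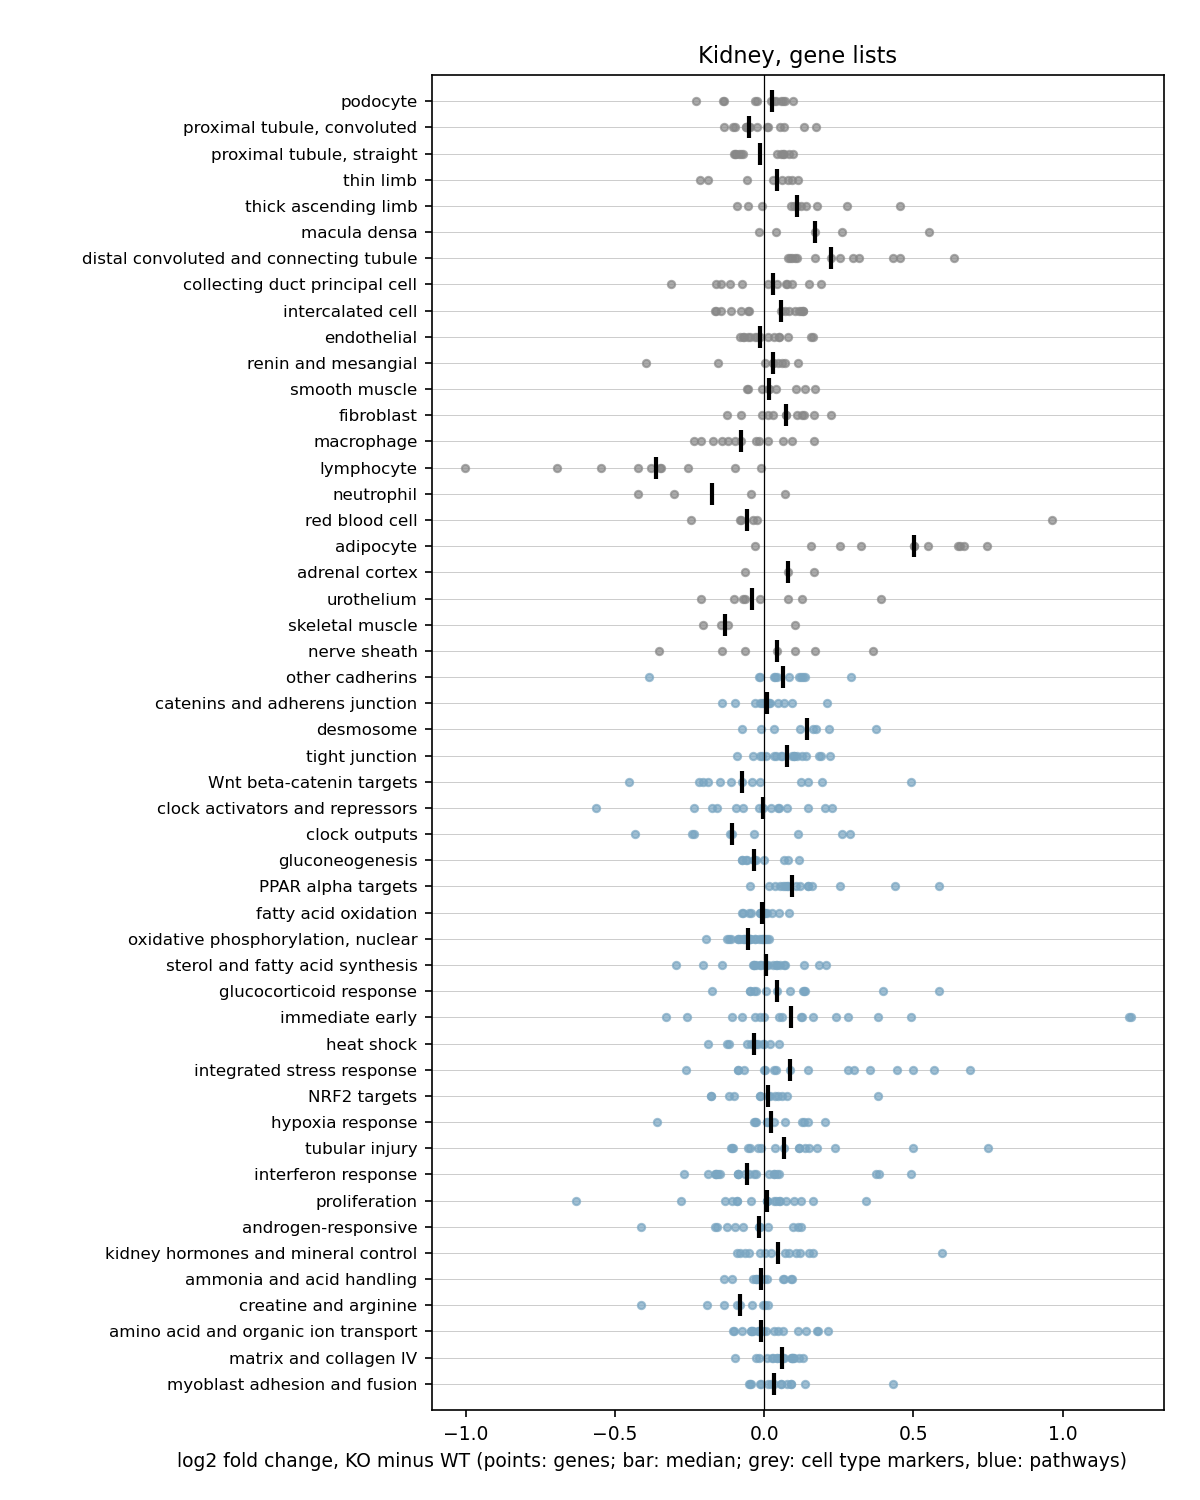
The log2 fold change, KO minus WT, of the tested members of 50 gene lists in kidney (horizontal axis), 1 list per row, with grey points for cell type markers, blue points for pathways and a black bar at the median. The adipocyte list has the highest median, 0.50, and the lymphocyte list the lowest, -0.36.

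Along the nephron, markers of the filter and the proximal tubule centred on 0. Podocyte markers had a median of 0.03 over 12 genes, with Nphs1, nephrin, at 0.06 (SE 0.12). Of the 12, 1 (Nes) was under an unadjusted p of 0.05 with KO lower, beside 1.45% of all tested genes. The median was -0.05 over 16 markers of the convoluted and -0.01 over 12 of the straight proximal tubule, with 0 under an unadjusted p of 0.05 in either. Slc5a2, the glucose carrier SGLT2, differed by -0.10 (SE 0.09), and Slc34a1 by -0.06 (SE 0.10). Collecting duct principal cells had a median of 0.03 over 12 genes and intercalated cells, which move acid, 0.06 over 15. Under an unadjusted p of 0.05 was 1 principal cell gene, Stc1, lower in KO, and 0 intercalated cell genes. Aqp2 differed by -0.16 (SE 0.16), with 125 ± 26.5 CPM in KO and 140 ± 22.7 CPM in WT.

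Distal markers leaned towards KO. All 13 tested genes of the distal convoluted and connecting tubule were positive, with a median of 0.23, and none was under an unadjusted p of 0.05. Slc12a3 had 121, 164, 127, 154 and 270 CPM in KO and 110, 125, 146 and 107 CPM in WT. Calb1, the calcium buffer calbindin, had 32.7, 48.8, 39.8, 32.2 and 103 CPM in KO and 35.8, 47.0, 32.0 and 36.7 CPM in WT. Both were highest in the KO mouse aged 65 days, and so was Trpv5, the calcium channel of the same cells, at 4.08 CPM against 1.11 to 1.75 CPM in the other 8 mice. Without that mouse 10 of the 13 genes were positive, the median was 0.02, and the log2 fold change went from 0.45 to 0.21 for Slc12a3, from 0.43 to 0.02 for Calb1 and from 0.63 to 0.23 for Trpv5.

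The thick ascending limb showed a similar dependence on 1 mouse. Of its 11 tested markers 8 were positive with a median of 0.11. Umod ranged from 1356 to 2036 CPM in KO and from 877 to 1687 CPM in WT, and Egf, the growth factor precursor made there, from 594 to 1054 CPM and from 358 to 690.4 CPM. The lowest level of both was that of the WT mouse aged 83 days. Without it 5 of the 11 markers were positive and the median was -0.02. Casr, the calcium-sensing receptor of this segment, was also lowest in that mouse, at 7.10 CPM against 14.4 to 28.4 CPM in the other 8.

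Blood vessels and stroma did not separate the genotypes. Endothelial markers had a median of -0.01 over 15 genes. Kdr, the VEGF receptor, was the 1 member under an unadjusted p of 0.05 (0.16, SE 0.06), beside 3.35% of all tested genes in either direction. Smooth muscle had a median of 0.02 over 9 genes, fibroblasts 0.07 over 12 (-0.02 without the KO mouse aged 82 days) and renin and mesangial cells 0.03 over 9. Ren1, renin, differed by 0.00 (SE 0.16) at 57.4 ± 9.23 CPM in KO and 57.2 ± 11.5 CPM in WT. Macrophage markers had a median of -0.08 over 13 genes, with Csf1r at 0.06 (SE 0.07).

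Lymphocyte markers were at the other end from fat. All 10 tested were negative, with a median of -0.36, and none passed the adjusted threshold in edgeR. Cd4, of helper T cells, had 0.672, 0.809, 0.727, 0.407 and 0.503 CPM in KO and 1.25, 0.589, 0.929 and 0.907 CPM in WT, with overlap (-0.55, SE 0.27). Cd3e, of T cells, had 0.181 to 0.604 CPM in KO and 0.334 to 0.978 CPM in WT (-0.70, SE 0.37). The whole list summed to 11.03 to 16.9 CPM of the library total in KO and 13.8 to 20.6 CPM in WT, so the ranges overlapped, and such counts are a handful of reads per gene and library. Without the WT mouse aged 83 days 4 of the 10 were positive and the median was -0.17.

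**Figure D4:**
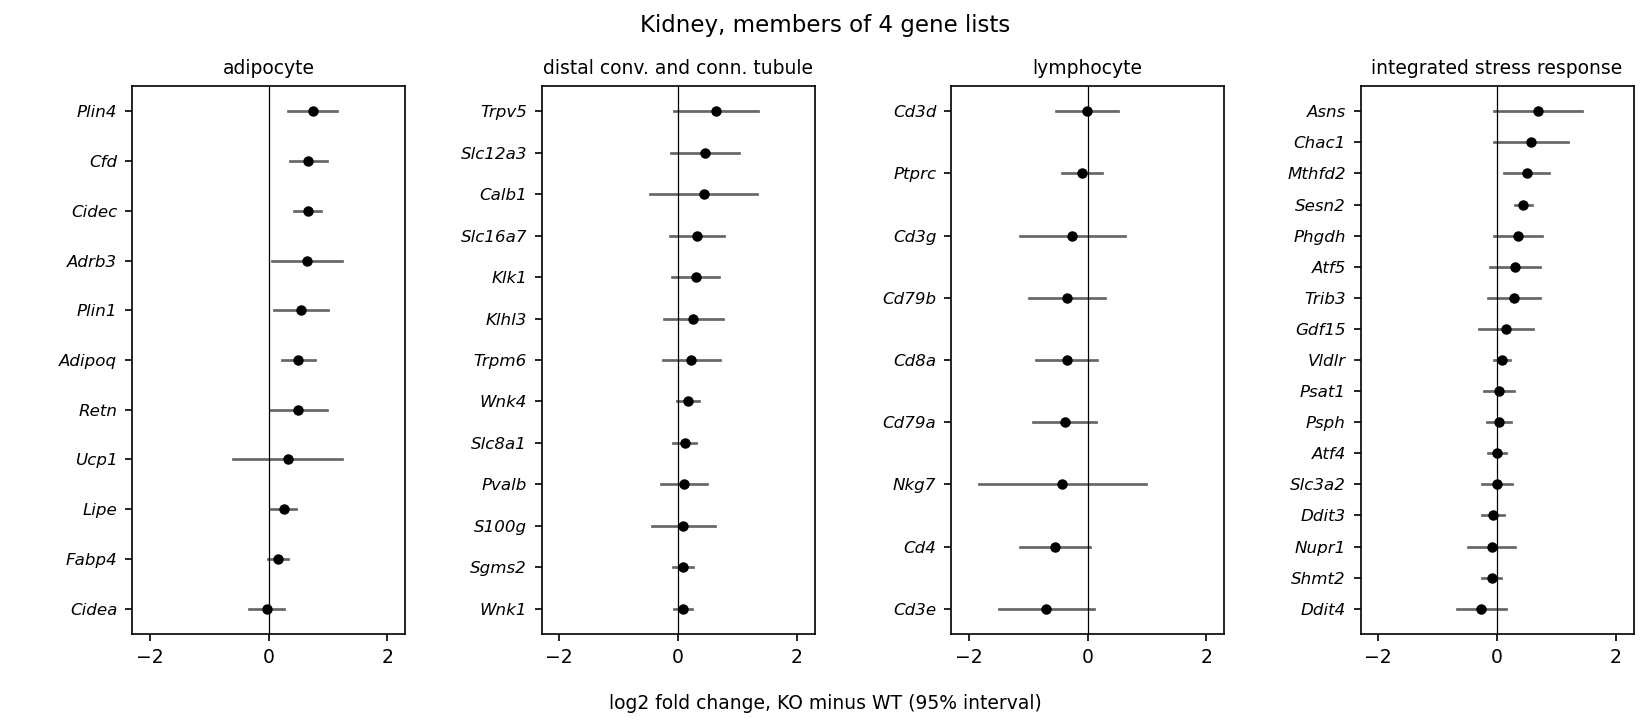
The log2 fold change, KO minus WT, with its 95% interval for tested members of 4 gene lists in kidney. Intervals of 8 of the 11 adipocyte genes exclude 0 on the positive side, those of all 13 distal tubule genes include 0, and so do those of the 9 lymphocyte markers drawn.

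Energy metabolism of the fasted kidney was alike in both genotypes. Pck1, the rate-setting enzyme of gluconeogenesis, was at 2042 ± 196 RPKM in KO (SD, n = 5) and 1988 ± 225 RPKM in WT (SD, n = 4), and differed by 0.00 (SE 0.10) on the log2 CPM scale. G6pc, which releases the glucose, differed by 0.07 (SE 0.13), and the 11 genes of the pathway had a median of -0.03. Fatty acid oxidation genes had a median of -0.01 over 17 genes. Of 16 targets of PPARα, the receptor that switches on fat burning in fasting, 15 were positive with a median of 0.09 and 0 under an unadjusted p of 0.05. Pdk4, the kinase that spares glucose, had 186, 179, 150, 288 and 256 CPM in KO and 141, 178, 158 and 86.1 CPM in WT (0.59, SE 0.27). Its lowest value was that of the WT mouse aged 65 days, without which 7 of the 16 targets were positive and the median was -0.04.

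Nuclear genes of oxidative phosphorylation were mostly a little lower in KO on the TMM-normalized scale, 25 of 28, with a median of -0.06. Of the 28, 2 were under an unadjusted p of 0.05 with KO lower, beside 1.45% of all tested genes. Summed over the list, their RNA was 9791 to 10193 CPM of the library total in KO and 9864.2 to 9999.9 CPM in WT. The means were 9976.6 and 9947.9 CPM, so the sum was not lower in KO. In 2 of the 28 every KO library was below every WT library, beside 0.652% of all tested genes. Ndufb5, a complex I subunit, was at 90.7 to 101.3 CPM in KO and 101.5 to 107.2 CPM in WT, without overlap (-0.12, SE 0.05). Per library total it was at 92.9 to 103.65 CPM in KO and 100.4 to 107.57 CPM in WT, with overlap. Cycs, cytochrome c, differed by -0.20 (SE 0.09). The 9 mitochondrially encoded genes among the 10 of highest RPKM were also lower, from -0.08 for ND2 to -0.15 for COX3 and ATP8. COX3 was at 16276 CPM in the KO mouse aged 65 days and at 19405 to 22147 CPM in the other 8. Without that mouse COX3 differed by -0.09 (SE 0.06) and ND2 by 0.00 (SE 0.06), while all 28 nuclear genes were negative with a median of -0.04.

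The spread among mice of 1 genotype was larger than the genotype difference for many responsive genes. Over 10680 genes at 5 CPM or more the median SD of log2 CPM within genotype was 0.108, and 49 genes exceeded 0.5. Egr1, an immediate early gene that rises within minutes of a stimulus, had 14.1, 23.9, 4.26, 5.74 and 68.9 CPM in KO and 4.92, 16.4, 6.90 and 11.3 CPM in WT. Fos followed it, with 6.95 CPM in the KO mouse aged 65 days, where Egr1 was highest, and 0.587 to 3.14 CPM in the other 8. Their log2 fold changes were 1.23 for Egr1 (SE 0.89) and 1.22 for Fos (SE 0.67), and without that mouse 0.28 (SE 0.64) and 0.64 (SE 0.49).

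Cyp4a14, a fatty acid hydroxylase under PPARα, had 233, 702, 508, 865 and 459 CPM in KO and 565, 706, 495 and 91.8 CPM in WT. The lowest mouse was the WT aged 65 days and the highest the KO aged 71 days, and the log2 fold change was 0.25 (SE 0.60). Without the WT mouse aged 65 days it turned to -0.09 (SE 0.41). Gm15441 was highest and lowest in the same 2 mice, at 129 and 15.1 CPM. Dbp, a clock output factor that swings over the day, ranged from 2.52 CPM in the KO mouse aged 65 days to 21.8 CPM in the WT mouse aged 83 days (-0.43, SE 0.58). Mfsd2a, a carrier of lysophospholipids that rises in fasting, had 22.5 CPM in the KO mouse aged 85 days and 3.35 to 13.6 CPM in the other 8. Its log2 fold change was -0.21 (SE 0.68) with that mouse and -1.16 (SE 0.29) without it.

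Several of the 12 genes of largest spread have near-identical copies between which reads can be split, and their values are uncertain. Tgoln2 was at 0 in 3 KO libraries and at 39.3 CPM in the KO mouse aged 65 days. Dynlt1a and Dynlt1b, copies of a dynein light chain gene, moved in opposite directions, the first at 27.3 CPM and the second at 3.08 CPM in the WT mouse aged 71 days. Tmem254b had 0.0464 to 14.3 CPM. Hba-a2, an α-globin, was at 396 CPM in the KO mouse aged 65 days and 32.8 to 102 CPM in the other 8, while its copy Hba-a1 was lowest in that mouse, at 316 CPM. Without that mouse the difference of Hba-a2 turned from 0.97 (SE 0.81) to -0.15 (SE 0.39).

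**Figure D5:**
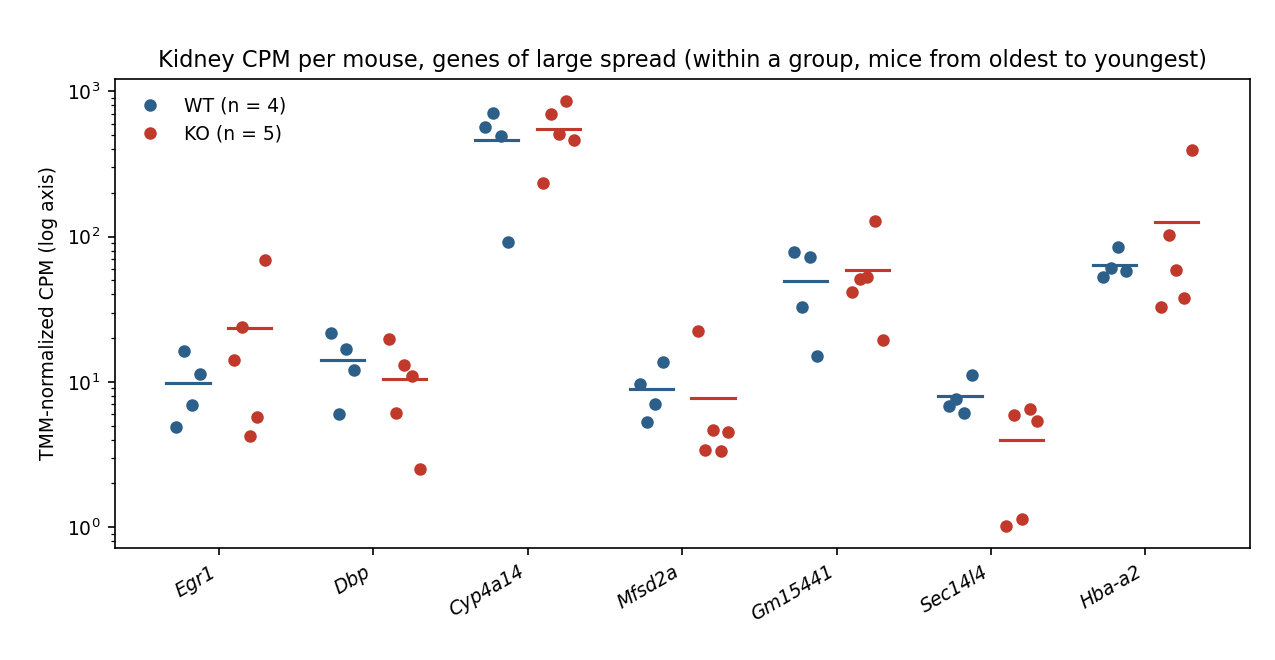
TMM-normalized CPM (log axis) of 7 of the genes with the largest spread among mice within genotype in kidney. Each point is 1 mouse, WT in blue and KO in red, from oldest to youngest within a group, with bars at the group means; the groups overlap for all 7 genes, and 1 mouse often stands apart, as for Egr1, Mfsd2a and Hba-a2.

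The kidney was set beside the other tissues of the same mice. No gene passed the edgeR threshold in heart (0% of 13438), liver (0% of 12357), lung (0% of 15172) or spleen (0% of 13952), and 1 gene, Cdh15, passed in the 4 muscles summed per mouse (0.00688% of 14543). The KO-WT difference in kidney was tested against its mean in heart, liver, lung and spleen, and 0 of 16912 genes (0%) passed, with 305 under an unadjusted p of 0.05. The WT mean of Sesn2 was 40.0 CPM in kidney, 2.61 CPM in heart, 7.77 in liver, 12.6 in lung, 12.7 in spleen and 2.82 in muscle, each tissue normalized on its own. Outside kidney its log2 fold change was -0.19 (SE 0.19) in heart, 0.09 (SE 0.14) in liver, 0.08 (SE 0.11) in lung, 0.02 (SE 0.13) in spleen and -0.19 (SE 0.14) in muscle. Kidney differed from the mean of the 4 organs by 0.44 (SE 0.14), which did not pass the adjusted threshold in edgeR (adjusted p = 0.99997).

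In the other tissues fat genes were measured as well, beside 49.0% to 51.7% of all tested genes with a positive difference. Of the adipocyte list 9 of 11 tested genes were positive in heart with a median of 0.17, 5 of 5 in liver with 0.07, 10 of 10 in lung with 0.16, 4 of 4 in spleen with 1.34 and 8 of 12 in the summed muscles with 0.12. At an unadjusted p under 0.05 there was 1 of them in heart, 1 in lung and 0 in liver, spleen and muscle. Of all tested genes, 3.13% were under that level in heart, 2.06% in lung, 1.57% in liver, 0.846% in spleen and 7.88% in muscle. In spleen the KO mice differed widely among themselves, with Cfd at 11.1 ± 22.7 CPM in KO (SD, n = 5) and 1.56 ± 0.889 CPM in WT (SD, n = 4) and Plin4 at 4.82 ± 7.38 and 1.73 ± 0.705 CPM. Cidec differed by 0.24 (SE 0.60) in heart, 0.35 (SE 0.67) in liver, 0.18 (SE 0.13) in lung and 0.13 (SE 0.33) in muscle. The difference of kidney from the 4 organs was -0.44 (SE 0.73) for Cidec and 0.22 (SE 0.40) for Plin4, so the fat genes cannot be called particular to kidney. These tissues come from the same mice and are not independent of the kidney.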

How the data were processed

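Per the labels' protocols, RNA was extracted with MagMax and made into KAPA stranded mRNA libraries. The submitters' processing notes name the build mm10, and the aligner, the counting tool and whether counting used the strand are not given in the sources used here, so reads of overlapping and antisense genes cannot be told apart. The deposited table is the authors' table of expected counts per gene, of which 85.55% were whole numbers. The deposited RPKM table, also made by the authors, was used for levels between genes and in no test.

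Expected counts were rounded, and the kidney libraries entered a fit of their own in R 4.3.3, the quasi-likelihood F test of edgeR 4.0.16 (robust, TMM, filterByExpr with a minimum count of 10 and total of 15, Benjamini-Hochberg, threshold 0.05). The table has 24453 genes, and its 22 marker sequences stayed out of the fits. CPM values of single genes are TMM-normalized, those of list sums and of Cdh15 are per library total, folds are log2 KO minus WT, and their standard errors come from the F statistic. The kidney of the fifth WT mouse was not analysed here. Nothing in the labels gives batches. Over 16 pairs of replicates the smallest chi-square per gene was 6.91, so no library was a copy of another.

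Alternatives were DESeq2 1.42.0 (its test, and its size factors in edgeR), other filters, no robust estimation, a term for age, a block for age-matched sets, and each mouse left out. Ages form 4 matched sets. The 5 same-set pairs of KO and WT mice correlated from -0.22 to 0.39 in their deviations, on average 0.09. The 15 other pairs correlated from -0.33 to 0.36, on average -0.03. So few pairs cannot show whether matching had an effect, and the sets entered only as an alternative. The fit was also run on simulated data, and no statement here rests on that run. Of 696 entries in 50 gene lists, 690 matched by the symbol in the file, 5 through the RefSeq table (GRCm38.p6) and 1 did not match. Named genes are Cdh15 and its 8 nearest tested genes, the 10 genes of smallest p each way at 1 CPM or more, the first 2 members and the 2 of smallest p in each list, the 12 of largest spread at 5 CPM or more, genes only DESeq2 called and the 10 of highest RPKM. Some genes that these rules choose were left out of the text. Other list members are named as examples after their values were seen. The members and lists were chosen with earlier results of these data known.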

Additional observations from a re-analysis of the deposited data

Results flagged for a closer look

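Of 72 groups of 4 or 5 mice checked for a mouse far from the others, 7 had one. Chance alone gives about 1 in 20 for groups not chosen by their values. Hba-a2, Dynlt1a and Mfsd2a were chosen for large spread and Ugt2b37, Kifc5b and Mrpl54 for small p, so the count of 7 cannot be set against that rate. The KO mouse aged 65 days was that mouse in 3 of them. It had 18.92% mitochondrially encoded counts against 22.6% to 23.7% in the other KO mice, Hba-a2 at 395.7 CPM against 32.8 to 102 CPM, and Mrpl54 at 23.51 CPM against 26.1 to 26.9 CPM. Dynlt1a was at 27.29 CPM in the WT mouse aged 71 days and at 6.26 to 6.45 CPM in the other WT mice, and this gene has near-identical copies. Mfsd2a was at 22.47 CPM in the KO mouse aged 85 days and at 3.35 to 4.67 CPM in the other KO mice. Ugt2b37 was at 97.96 CPM in the WT mouse aged 65 days and at 80.7 to 82.0 CPM in the other WT mice, and without that mouse its log2 fold change was -0.27. Kifc5b was at 1.247 CPM in the KO mouse aged 72 days and at 0.705 to 0.854 CPM in the other KO mice, and without that mouse its log2 fold change was -0.82.

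A signal outside the kidney comparison was the LacZ marker sequence, which averaged 6.1305 CPM over the KO muscle libraries and 0.00663 CPM over the WT muscle libraries, with at most 1 read in a kidney library.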

How the results depend on the processing

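The count of 0 genes called in kidney held with DESeq2 size factors in edgeR, a filter at a mean of 1 CPM, no robust estimation, age as a covariate, the age-matched set as a replicate block (0 genes) and each mouse left out. It was 4 with the DESeq2 test and 1 without the filter on low counts. Genes at an unadjusted p under 0.05, 478 in the main result, numbered 359 with DESeq2, 624 without the filter and 646 with the replicate block, and from 332 (without the WT mouse aged 83 days) to 774 (without the WT mouse aged 72 days) when 1 mouse was left out. The comparison of kidney with the 4 other organs gave 0 genes in all its alternatives, the mouse as a replicate block included. The 20 genes of smallest p kept their direction in all alternatives that gave a value. They were chosen for small p in these same libraries, so this follows largely from the choice and is no measure of stability. Medians of gene lists, many of them near 0, changed sign more often. With 1 mouse left out, 32 of the 50 turned sign in at least 1 case, among them those of the thick ascending limb (-0.02), PPARα targets (-0.04), fibroblasts (-0.02) and immediate early genes (-0.03). That of the distal tubule went from 0.23 to 0.02, that of lymphocytes from -0.36 to -0.17 and that of the desmosome from 0.14 to 0.04. The adrenal cortex moved to -0.16 without the filter on low counts, where more of its members are tested. With 5 against 4 mice, changes beyond 1.5-fold are bounded for 98.004% of genes at 10 CPM or more, and for fewer of the low genes.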

Other observations

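Further programs of the kidney were near 0 or rested on single genes. Of 17 tested genes of tubular injury 10 were positive with a median of 0.07, but without the KO mouse aged 65 days 7 were positive with a median of -0.0031, and without the WT mouse aged 65 days the median was -0.03. Havcr1 (KIM-1), the marker of injured proximal tubule, was at 1.13 ± 0.302 CPM in KO and 1.17 ± 0.473 CPM in WT, and Lcn2 differed by -0.05 (SE 0.17). C3, the central complement protein, had 32.3, 43.3, 44.8, 30.03 and 42.3 CPM in KO and 22.8, 27.8, 33.9 and 24.4 CPM in WT, and differed by 0.50 (SE 0.15) with the WT mouse aged 71 days overlapping. Hmox1, heme oxygenase, was at 60.4 ± 5.36 CPM in KO and 46.3 ± 9.66 CPM in WT (0.38, SE 0.13), while Nqo1 and Gclc, other targets of NRF2, differed by 0.02 (SE 0.08) and 0.05 (SE 0.09).

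Interferon genes had a median of -0.06 over 22 genes, and 0.0037 without the KO mouse aged 65 days. Ifi27l2a among them was at 5.92 to 8.31 CPM in KO and 4.96 to 5.78 CPM in WT, without overlap (0.37, SE 0.11), whereas Isg15 differed by -0.27 (SE 0.15). Proliferation genes had a median of 0.01 over 19 genes, with Mki67 at 0.01 (SE 0.16). Androgen-responsive genes had a median of -0.02 over 13 genes, and Odc1, ornithine decarboxylase, ranged from 363 to 1114 CPM in WT and 366 to 767 CPM in KO. None of these genes passed the edgeR threshold after adjustment.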
